A study of Glycine max and Glycine soja with 189 samples.

Results

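The 200 soybean transcripts described here were highest late in the evening under short days but in the afternoon under long days. Many plant transcripts rise and fall once a day. The circadian clock, a set of genes that regulate one another, and light together set the hour of the peak, and a change of day length can move that hour by moving dawn and dusk. Soybean is a short-day plant whose flowering is hastened by long nights, and its maturity loci (E loci) set how strongly long days delay flowering.

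The members were chosen from RPKM values, that is, reads on a transcript scaled to its length and to the depth of the library. For each transcript the mean over all 21 libraries of a photoperiod and time point was taken as log2(1 + mean), and the margin of a photoperiod was the highest minus the second highest of these values over the 3 time points. Transcripts with the peak at T5 under short days (SD) and at T3 under long days (LD), and with both margins at least 0.5 on the log2 scale, were kept. Of 311 such transcripts, 1 was left out because the study names its locus (GmCOL13a), and the first 200 of the remaining 310, ranked by the smaller margin, were the members. They were 200 of 73319 transcripts and came from 148 of 54174 loci. The SD and LD values over the genotypes chose the members, so these values are given as a description without a test. Tests were made in the libraries of the shift experiment, which the rule did not use, and between genotypes. Genotype tests that include SD or LD used the libraries that chose the members, where the rule took the mean over the genotypes.

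The plants were shifted from LD to SD (LD-SD, LD for 21 days and then SD for 5 days), or grew under SD (10 h of light and 14 h of dark) or LD (16 h of light and 8 h of dark), and according to the sample records they were collected at 26 days. T1 was 6:30, before the lights came on; T3 was 14:30, in the light of every treatment; and T5 was 22:30, in the dark under SD and LD-SD and still in the light under LD. The 7 genotypes were the near isogenic lines (NILs) of Clark, namely L65-3366 (dominant E1), L66-432 (recessive e2), L74-441 (recessive e3) and L92-1195 (recessive e3 with dominant E5), the cultivar Williams 82, the wild soybean Glycine soja, whose alleles are not given, and the cultivar Clark (recessive e1 and e5 with dominant E2, E3, E4 and E7), with 3 libraries for each of the 63 groups. The records name the first trifoliate leaf as the tissue while the methods name the whole shoot above the cotyledon at an earlier age, so tissue and age are uncertain, and a level here cannot tell a change per cell from a change in the mix of cells.

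Mapped reads ranged from 4.92 M to 18.2 M per library (median 9.54 M), and the members had between 2 and 2696 reads in a library by their medians (median of members 115.5), with 7 members under 10. Replicates correlated with r between 0.879 and 0.993 (median 0.979). The LD-SD library of L92-1195 at T5 whose replicate letter is unclear lay closer to the T3 than to the T5 libraries of its treatment. By the transcripts that mark each genotype, 20 libraries lay nearest to a genotype other than that of their label. In 9 of them the markers were taken to go against the label, since their own genotype was at least 1.2 times as far as the nearest. Of these, 4 were LD T1 libraries of letter A and 5 were LD-SD libraries. The counts of T5 against T3 in LD-SD and of the genotype tests are given with and without these 9 libraries, which was chosen after seeing the data. The locus names of the files had 0 matches in the reference gene table used here and no genome was used, so members are given by locus ID, without gene names, functions or sequences.

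Under SD the members were low before dawn, intermediate in the afternoon and high at night, while under LD they were high in the afternoon and had returned to lower levels by 22:30. The medians of the members' mean levels at T1, T3 and T5 were 3.54, 7.27 and 15.2 RPKM under SD, and 4.76, 20.4 and 7.25 RPKM under LD. T1 was the lowest time point for 183 members under SD and for 163 under LD, so most members were lowest before dawn among the sampled hours in both photoperiods. The hours between the samples were not measured, so the number of peaks in a day and the hour of the trough cannot be read from these values. The margin of the peak had a median of 0.97 under SD (range 0.61 to 4.33) and 1.03 under LD (range 0.61 to 4.56), and it was larger under LD for 122 members. At their own peaks the members tended to be lower under SD: the ratio of the SD T5 mean to the LD T3 mean had a median of 0.772 (range 0.116 to 13.4), and the LD T3 mean was the higher one for 141 members. The members had a median of 10.6 RPKM over SD and LD (range 0.855 to 303), and a margin on log2(1 + mean) leaves out transcripts of very low level.

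Read library by library, as a description of the libraries that chose the members, the peaks stood apart from the other hour. The median RPKM of the 200 members in a library lay between 10.7 and 16.0 in the 21 SD libraries of T5 and between 5.37 and 8.22 in the 21 SD libraries of T3, which did not overlap. Under LD it lay between 5.95 and 8.90 at T5 and between 15.4 and 22.7 at T3, again without overlap. For single members, all 21 SD libraries of T5 were above all 21 of T3 for 59 members, and all 21 LD libraries of T3 were above all 21 of T5 for 66 members. The rule favours such members, and the same counts over all transcripts were not made.

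**Figure D1:**
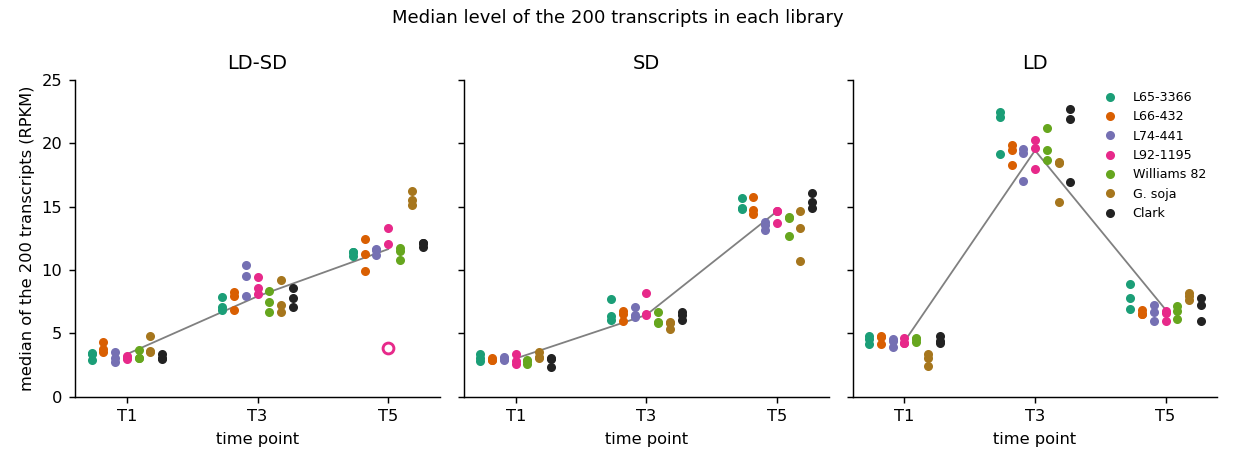
Median RPKM of the 200 members in each library, by time point (T1, T3, T5) in LD-SD, SD and LD. Each point is 1 library, coloured by genotype, the grey line joins the medians over libraries, and the open circle is the LD-SD L92-1195 T5 library of unclear letter. Medians lie between 10.7 and 16.0 RPKM in SD at T5 and between 15.4 and 22.7 RPKM in LD at T3, and the LD-SD T5 libraries spread from 3.85 to 16.2 RPKM.

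The choice was repeated with 1 replicate letter left out, and the transcripts chosen in this way were read in the left-out libraries. They were not the same set as the members: the first 200 without letter A, B or C held 154, 154 and 157 of the members. Of the 200 transcripts chosen on letters B and C, 172 had both peaks at the same hours in the libraries of letter A, against 22.5% of all transcripts that averaged at least 0.1 RPKM. The same count was 195 of 200 for letter B (22.3% of all) and 161 of 200 for letter C (22.1% of all). In the left-out libraries the median SD margin was 1.06, 0.86 and 0.96 for letters A, B and C, close to the 0.96, 0.93 and 1.0 in the libraries that chose the transcripts, and the LD margins were 0.93, 1.10 and 0.95, against 0.95, 1.02 and 1.10. Both peaks with both margins of at least 0.5 were found in the left-out libraries for 118, 123 and 122 of the 200 transcripts. The chosen transcripts had been picked for wide margins in the other letters, while the shares of all transcripts given above carry no margin limit. How many of all transcripts also passed the margins was not counted, so these last counts have no baseline.

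The member with the widest smaller margin was Glyma19g27530.1. In LD-SD it had 4.48, 7.32 and 18.1 RPKM (lowest, median and highest of 21 libraries) at T1, 13.3, 22.5 and 72.8 at T3, and 9.46, 150 and 227 at T5. Under SD the same 3 values were 2.92, 4.30 and 9.28 RPKM at T1, 6.88, 14.3 and 36.7 at T3, and 102, 214 and 348 at T5. Under LD they were 4.15, 6.50 and 12.7 RPKM at T1, 232, 596 and 1089 at T3, and 15.9, 35.9 and 61.4 at T5. The T5 libraries were thus all above the T3 libraries under SD and all below them under LD, while in LD-SD the 2 time points overlapped, with the lowest T5 value under all T3 values. The second rank was another transcript of the same locus, Glyma19g27530.2, with means of 58.7, 95.5 and 16.6 RPKM at T5 in LD-SD, SD and LD and of 14.8, 7.65 and 255 RPKM at T3.

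The most abundant members showed that the LD-SD libraries did not always follow SD. Glyma16g05350.1 averaged 32.1 ± 12.2, 140 ± 68.5 and 304 ± 107 RPKM at T1, T3 and T5 in LD-SD (± standard deviation, n = 21 each), 15.5 ± 3.29, 102 ± 32.0 and 475 ± 155 RPKM under SD, and 31.1 ± 12.5, 1110 ± 453 and 84.0 ± 29.6 RPKM under LD. Glyma11g12505.1 averaged 36.3 ± 6.90, 192 ± 48.8 and 143 ± 34.7 RPKM in LD-SD, 42.1 ± 10.9, 177 ± 36.0 and 393 ± 69.5 RPKM under SD, and 60.7 ± 10.8, 827 ± 211 and 76.8 ± 15.6 RPKM under LD. Both transcripts were thus far below their LD level at T3 after the shift, but of these 2 only Glyma16g05350.1 was highest at T5. At the other end of the ranking, the last member, Glyma04g09200.1, had a smaller margin of 0.61, with 19.4 ± 5.52, 17.8 ± 5.08 and 6.63 ± 1.79 RPKM at T5 in LD-SD, SD and LD and 17.6 ± 5.34, 11.3 ± 3.34 and 18 ± 3.76 RPKM at T3, and the first transcript outside the limit, Glyma15g08300.2, also had 0.61.

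**Figure D2:**
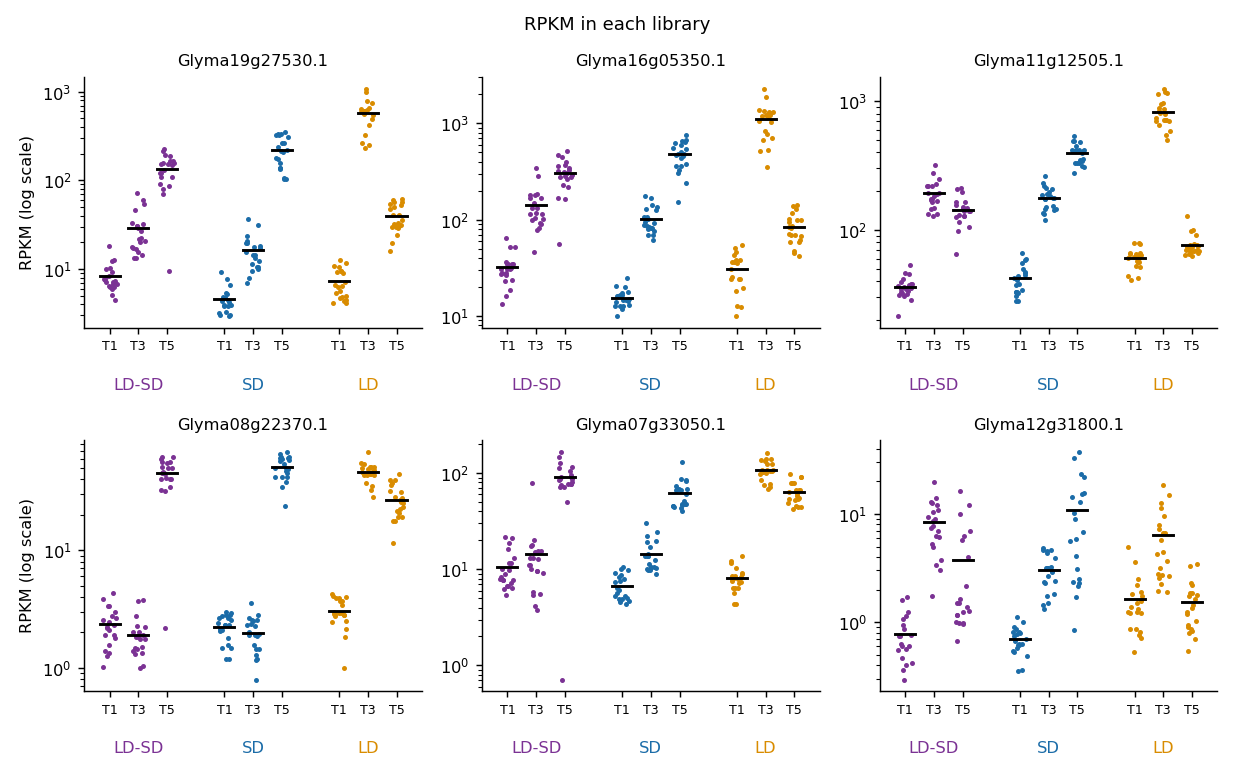
RPKM of 6 members on a log scale in every library, by photoperiod (LD-SD, SD, LD) and time point (T1, T3, T5), with points coloured by photoperiod and black bars at the means over 21 libraries. Glyma08g22370.1 averages 45.0 RPKM in LD-SD and 51 RPKM in SD at T5, while Glyma11g12505.1 averages 143 RPKM in LD-SD and 393 RPKM in SD at T5.

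The shift experiment asked where the members stood after 5 days of SD. Most of them had left the LD pattern and were highest at T5. In LD-SD the means over the 21 libraries peaked at T5 for 164 members, at T3 for 36 and at T1 for 0. Their medians at T1, T3 and T5 were 3.81, 8.47 and 12.9 RPKM. In limma, on log2(RPKM + 1) with Benjamini-Hochberg adjustment over all transcripts and a threshold of 0.05, the time points differed for 195 members, where 78.4% of all transcripts tested also passed. T5 was higher than T3 for 134 members (37.0% of all transcripts tested) and lower for 22 (19.5% of all), and 44 were not called. The median of T5 minus T3 was 0.48 over the members and 0.07 over all transcripts (log2). The libraries of T5 and T3 did not separate completely for any member, and without the L92-1195 library of unclear letter they did for 22 members, all higher at T5. Such separation was not counted over all transcripts. Without that library T5 was higher for 144 members (40.1% of all) and lower for 20 (19.2% of all), and without the libraries against their genotype label it was higher for 132 (33.6% of all) and lower for 20 (17.6% of all). With replicate letter B left out it was lower for 14 (17.7% of all).

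The difference from T1 was larger than that between T5 and T3. T5 was higher than T1 for 190 members (45.4% of all transcripts tested) and lower for 0 in limma (12.2% of all), where 192 were higher and 0 lower at an unadjusted p under 0.05. The median of T5 minus T1 was 1.29 over the members and 0.13 over all transcripts. With a scaling of each library by the median of ratios the median of all transcripts was −0.01. In that fit 182 members were higher (24.3% of all) and 0 lower (25.2% of all). T3 was higher than T1 for 156 members (37.5% of all) and lower for 12 (25.8% of all), with a median of 0.79 against 0.04 over all transcripts. Of the 134 members higher at T5 than at T3, 129 were also higher at T5 than at T1, and all 22 members lower at T5 were higher at T3 than at T1. The same scaling gave 123 members higher and 30 lower at T5 than at T3, while the split over all transcripts moved to 16154 higher and 16490 lower, against 22488 higher and 11861 lower without it.

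**Figure D3:**
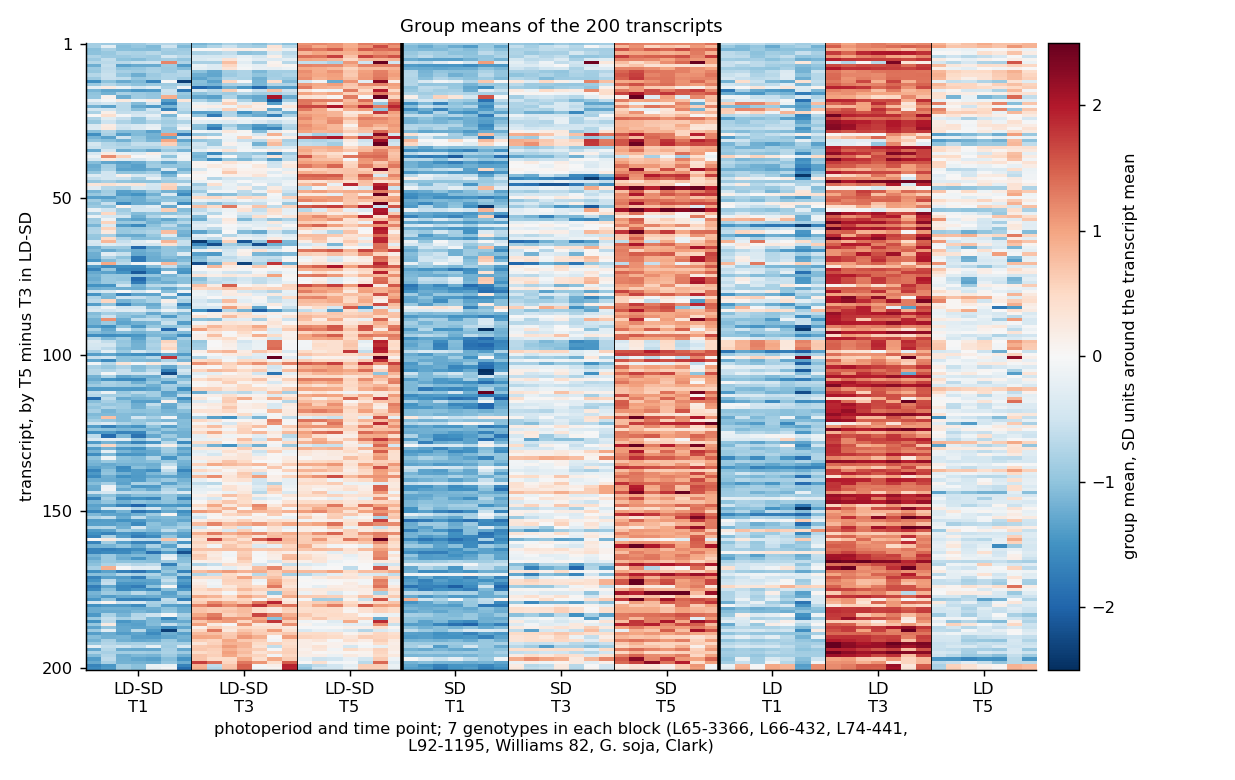
Levels of the 200 members (down the page, sorted by T5 minus T3 in LD-SD) in the 63 groups, in 9 blocks of photoperiod and time point with the 7 genotypes side by side in each. Colours are standardized log2 levels of each transcript (z units), and the time points of LD-SD, SD and LD run from T1 to T5. The SD T5 and LD T3 blocks are high throughout by the choice of members, while in LD-SD 164 members peak at T5 and 36 at T3.

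The level in LD-SD lay between SD and LD for most members, nearer to SD. T5 minus T3 (log2 of 1 + mean RPKM) had a median of 0.52 in LD-SD (quartiles 0.18 and 0.98, range −1.21 to 3.98), 1.0 in SD and −1.08 in LD, and the medians over all transcripts were 0.07, 0.18 and 0.02. When the LD value is set to 0 and the SD value to 1 for each member, the LD-SD value had a median of 0.77 (quartiles 0.64 and 0.92). It was above 0.5 for 178 members, above 1 for 28 and below 0 for 0. LD-SD stood away from LD at both hours. At T3 the ratio of LD-SD to LD had a median of 0.407, with LD-SD lower for 195 members, and at T5 it had a median of 1.70, with LD-SD higher for 190 members. The ratio of LD-SD to SD had a median of 1.35 at T3 and 0.804 at T5, where LD-SD was lower than SD for 137 members. LD-SD lay between SD and LD for 135 members at T3, below both for 60 and above both for 5, and at T5 it lay between them for 127, above both for 63 and below both for 10. These values use the libraries that chose the members and carry no test.

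The members that were higher at T5 in LD-SD included Glyma08g22370.1 and Glyma07g33050.1, which had the largest differences past the threshold. Glyma08g22370.1 had 2.16, 45.4 and 62.1 RPKM at T5 (lowest, median and highest of 21 LD-SD libraries), against 1.0, 1.82 and 3.75 RPKM at T3. The T5 minus T3 difference was 3.87 ± 0.18 (log2, SE, limma adjusted p = 2.05e-23), and 20 T5 libraries were above all T3 libraries, the exception being the L92-1195 library of unclear letter. Under SD and LD this transcript averaged 51 and 26.9 RPKM at T5 and 1.99 and 46.0 RPKM at T3. Glyma07g33050.1 had 0.713, 86.9 and 166 RPKM at T5, against 3.74, 11.1 and 79.3 RPKM at T3, and its libraries of both time points overlapped, with a difference of 2.62 ± 0.27 (log2, SE, limma adjusted p = 1.41e-11). Glyma19g27530.1 was higher at T5 by 2.18 ± 0.19 (adjusted p = 5.23e-14) and Glyma16g05350.1 by 1.13 ± 0.15 (adjusted p = 9.80e-09) in the same limma test.

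The 22 members that were lower at T5 than at T3 in LD-SD had steep LD peaks. Their LD margin had a median of 2.49 and their SD margin of 1.16, against 1.0 and 0.98 for the 134 members higher at T5. Their medians at T1, T3 and T5 were 0.880, 8.65 and 5.33 RPKM in LD-SD, 0.994, 6.87 and 13.5 RPKM in SD and 1.73, 20.8 and 2.14 RPKM in LD. The 134 members higher at T5 had 4.17, 7.33 and 14.9 RPKM in LD-SD, 3.66, 6.04 and 15.1 RPKM in SD and 5.11, 20.5 and 8.58 RPKM in LD. The afternoon medians of both sets in LD-SD were nearer to SD than to LD, while at T5 the median of the 22 members was below its SD value and that of the 134 members was close to it. The 134 members came from 95 loci and the 22 from 18 loci, with no locus in both.

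Among the 22, the differences were largest for Glyma12g31800.1 and Glyma10g42340.1. Glyma12g31800.1 had 0.663, 1.5 and 16.5 RPKM at T5 (lowest, median and highest of 21 LD-SD libraries), against 1.75, 7.82 and 19.7 RPKM at T3, and the difference was −1.24 ± 0.22 (log2, SE, limma adjusted p = 3.66e-06). It was also a variable member under SD, with 0.847, 6.79 and 37.6 RPKM at T5. Glyma10g42340.1 had 1.11, 2.46 and 10.1 RPKM at T5 in LD-SD, against 1.94, 6.16 and 14.5 RPKM at T3, and the difference was −0.90 ± 0.14 (adjusted p = 6.12e-07). The abundant Glyma11g12505.1 was lower at T5 by a smaller amount (−0.42 ± 0.09, adjusted p = 0.00016), and the last member, Glyma04g09200.1, was not called (0.13 ± 0.13, adjusted p = 0.424). The libraries of T5 and T3 overlapped for each of these 4 transcripts.

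To see where the LD-SD levels of the members differ from those of other cycling transcripts, the same limma test was read for transcripts that kept their hour in both photoperiods with margins of at least 0.5. Of 391 transcripts with the peak at T3 in both SD and LD, 3 were higher and 344 lower at T5 than at T3 in LD-SD, with a median difference of −0.87. Of 304 transcripts with the peak at T5 in both, 245 were higher and 12 lower, with a median of 0.85. The median of the members (0.48) lay between those of these sets, and the differences between the sets were not tested.

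**Figure D4:**
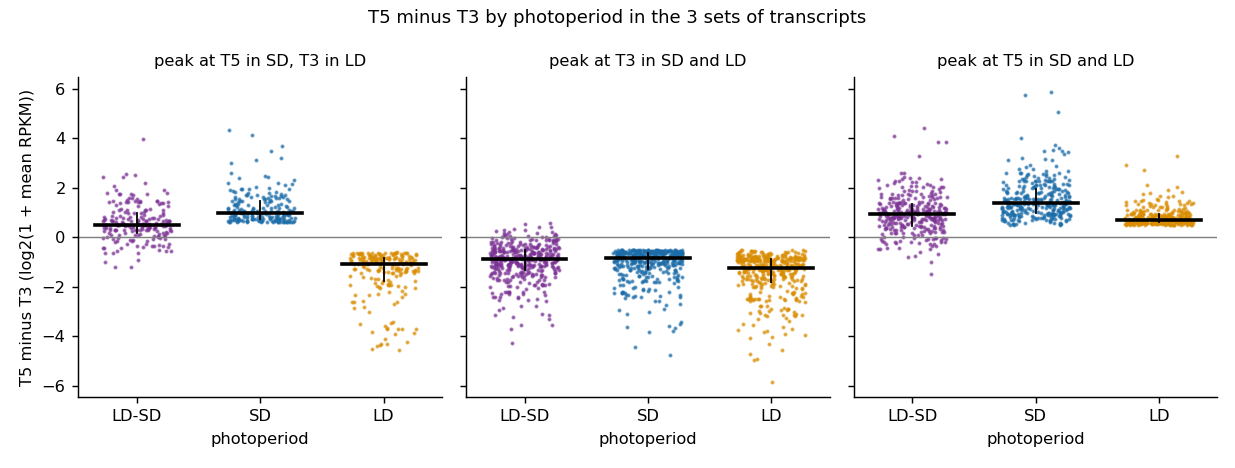
T5 minus T3 (log2 of 1 + mean RPKM) in LD-SD, SD and LD for the 200 members, the 391 transcripts that peak at T3 in SD and LD, and the 304 that peak at T5 in SD and LD. Each point is 1 transcript, bars are medians and vertical lines run between the quartiles. For the members the medians are 0.52 in LD-SD, 1.0 in SD and −1.08 in LD, where the SD and LD signs follow from the choice of members.

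The libraries of every genotype were among those that chose the members, so the SD and LD peaks within a genotype are a description. Under SD the peak was at T5 for 195 members in L65-3366, 200 in L66-432, 197 in L74-441, 197 in L92-1195, 199 in Williams 82, 194 in G. soja and 199 in Clark. Under LD the peak was at T3 for 198, 199, 198, 199, 200, 181 and 200 members in the same order, and 18 of the members peaked at T5 in G. soja under LD. All 7 genotypes had the SD peak at T5 for 188 members and the LD peak at T3 for 179, and both for 174. In LD-SD the peak was at T5 in all 7 genotypes for 86 members and at T3 in all 7 for 8 members. Each of these peaks rests on means of 3 libraries.

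In LD-SD, T5 minus T3 within a genotype, with 3 libraries against 3, was tested in the same limma fit. G. soja had 93 members higher at T5 and 0 lower, against 11.4% and 8.77% of all transcripts, and at an unadjusted p under 0.05 the limma counts were 123 and 4. L65-3366 had 68 higher and 3 lower (15.1% and 8.51% of all), L66-432 had 50 and 3 (10.7% and 7.51%), L74-441 had 47 and 8 (17.7% and 6.98%), and L92-1195 had 16 and 11 (4.22% and 6.47%). Williams 82 had 57 higher and 3 lower (11.7% and 6.27%) and Clark had 58 and 3 (11.4% and 7.36%). The median of T5 minus T3 over the members was 0.59 in L65-3366, 0.45 in L66-432, 0.29 in L74-441, 0.14 in L92-1195, 0.50 in Williams 82, 0.74 in G. soja and 0.56 in Clark. The low value of L92-1195 rested on its library of unclear letter, whose median over the members was 3.85 RPKM, against 9.95 to 16.2 RPKM in the other 20 LD-SD libraries of T5, and which was the lowest of the 21 for 144 members. On log2 of 1 + mean RPKM, the median of L92-1195 was 0.51 without that library and 0.28 with it, and T5 was above T3 for 160 members without it and for 129 with it. On the same scale, leaving out the libraries against their genotype label gave 0.60 in L65-3366, 0.43 in L66-432 and 0.33 in L74-441, against 0.60, 0.47 and 0.29 with them, and left 1 T5 library of L74-441. In limma, leaving out the library of unclear letter gave 68 members higher and 6 lower in L92-1195 (12.1% and 7.39% of all), against 16 and 11 with it. Leaving out the libraries against their label gave 50 higher and 1 lower in L65-3366 (10.4% and 6.64% of all), 34 and 0 in L66-432 (6.99% and 5.06%) and 15 and 0 in L74-441 (3.94% and 2.57%), where the lone T5 library is assumed to vary like the other groups. At an unadjusted p under 0.05 the limma counts of lower members were 7 in L66-432 and 4 in L74-441.

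The wild soybean stood at the upper end of LD-SD at T5. The medians of its member means were 3.99, 7.83 and 16.4 RPKM at T1, T3 and T5 in LD-SD, against 3.26, 8.43 and 12.4 RPKM in Clark. Relative to the mean of the other 6 genotypes, the members of G. soja had a median deviation of 0.29 at T5 in LD-SD, −0.10 at T5 in SD and 0.23 at T5 in LD (log2). Its afternoon deviations were 0.00 in LD-SD, 0.00 in SD and −0.16 in LD. Under LD the medians were 3.11, 18 and 8.68 RPKM in G. soja, against 4.65, 21.5 and 7.0 RPKM in Clark. The share of recorded reads that mapped was 83.9% to 88.3% in G. soja libraries (median 86.7%), against 87.0% to 89.3% in Clark (median 88.2%). Over the 161 libraries of the other 6 genotypes it was 68.4% to 89.5% (median 88.2%), with the lowest values in L66-432 (68.4%) and L74-441 (81.0%), and its part in these differences was not tested.

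Differences in level among the 7 genotypes over the 3 time points passed the limma F-test for 60 members in LD-SD (16.6% of all transcripts tested), 30 in SD (12.5% of all) and 32 in LD (13.9% of all). Of the members, 86 were called in at least 1 photoperiod and 9 in all of them, and the same counts over all transcripts were not made. The genotype farthest from the rest was G. soja for 49 of the 60, 25 of the 30 and 26 of the 32 members. In those called in LD-SD, G. soja was higher than the other genotypes for 38 and lower for 22, and these counts were 9 and 21 in SD and 15 and 17 in LD. Neither the farthest genotype nor its direction was counted over all transcripts, so these counts have no baseline. With G. soja left out of the fit, 3, 3 and 1 members passed in LD-SD, SD and LD (1.45%, 1.44% and 0.917% of all). The share of all transcripts that passed thus fell as well, so the part of G. soja was not particular to the members. Without the 9 libraries whose markers went against their label the counts were 40, 30 and 25 (13.0%, 12.5% and 13.8% of all). Without the L92-1195 library of unclear letter 83 passed in LD-SD (20.3% of all), and without the SD library of L66-432 at T5 that stood apart (replicate B) 42 passed in SD (14.8% of all). With letter A, B or C left out, which leaves 2 libraries in a group, 15, 12 and 14 passed in LD-SD (5.40%, 5.88% and 5.81% of all), 14, 12 and 12 in SD (6.02%, 6.45% and 4.59%) and 26, 7 and 8 in LD (9.89%, 5.17% and 4.54%).

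Glyma15g42570.1 had the smallest adjusted p of the genotype tests in LD-SD and in LD. At T5 in LD-SD it had 128, 294 and 232 RPKM in the 3 G. soja libraries, against 9.19, 16.1 and 14.4 RPKM in Clark and 7.12 to 19.1 RPKM over the 18 libraries of the other 6 genotypes. At T3 in LD it had 279, 196 and 164 RPKM in G. soja, against 22.6, 22.4 and 30.4 RPKM in Clark. The G. soja libraries were high at every time point in LD-SD and LD, with 71.0, 49.6 and 105 RPKM at T1 in LD-SD, against 4.92, 3.16 and 4.07 RPKM in Clark. The limma F-test gave an adjusted p of 5.84e-17 in LD-SD and 4.11e-14 in LD, and without G. soja 0.888 and 1.0. The next locus by name, Glyma15g42590, held 3 members, and all 3 also passed the genotype test in LD-SD.

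In SD the smallest adjusted p among the members was that of Glyma05g38110.1 (3.22e-13, limma F-test), whose level separated Williams 82 and G. soja from Clark and its NILs. At T5 in SD it had 2.39, 2.41 and 1.56 RPKM in Williams 82 and 2.67, 5.13 and 3.79 RPKM in G. soja, against 60.6, 65.7 and 34.2 RPKM in Clark, and the NILs lay between 31.6 and 90.9 RPKM. The libraries of the low and the high genotypes did not overlap. At T1 in LD its 3 Williams 82 libraries had 8.52, 0.484 and 0.370 RPKM, and the first of these is one of the libraries whose markers went against their label.

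**Figure D5:**
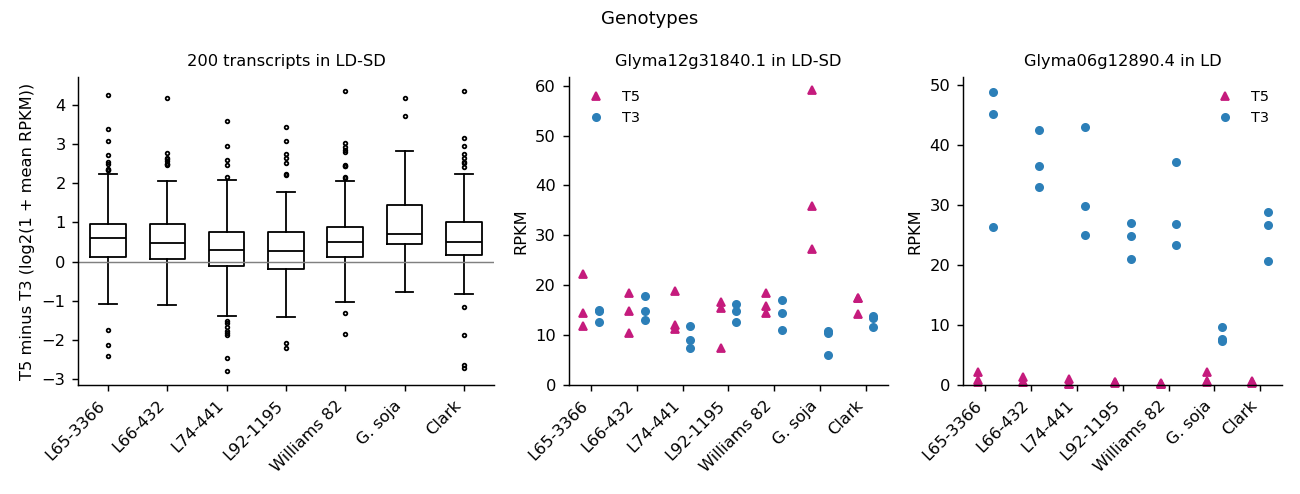
Left, T5 minus T3 in LD-SD (log2) of the 200 members in each genotype, as box plots with the median line, quartile boxes, whiskers and points for members beyond the whiskers. Middle and right, RPKM of Glyma12g31840.1 in LD-SD and of Glyma06g12890.4 in LD, each in the 3 libraries of a genotype at T5 and T3. G. soja has the highest median in LD-SD, and its T5 values of Glyma12g31840.1 (27.3, 35.9 and 59.0 RPKM) lie above those of all other genotypes.

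The size of the swing between photoperiods differed among genotypes for few members. The difference of T5 minus T3 between SD and LD varied among the 7 genotypes for 3 members in the limma F-test (0.0996% of all transcripts tested), with 26 at an unadjusted p under 0.05, and all 3 were transcripts of 1 locus, Glyma06g12890. For Glyma06g12890.4 (adjusted p = 0.00164) the swing was 3.49 in G. soja, 5.80 in L65-3366, 5.96 in L66-432, 5.95 in L74-441, 5.01 in L92-1195, 6.00 in Williams 82 and 5.10 in Clark (log2). At T3 in LD it had 9.67, 7.70 and 7.42 RPKM in G. soja, against 20.6, 28.9 and 26.6 RPKM in Clark and 20.6 to 48.8 RPKM over the other 6 genotypes. The afternoon peak under LD was thus lower in every G. soja library, while at T5 in LD the 3 libraries of G. soja (0.624, 0.597 and 2.13 RPKM) overlapped with those of the others. At T5 in LD this transcript averaged 0.705 RPKM over 21 libraries, where a pseudocount of 1 makes the swing depend on the level. Its level also differed among genotypes in SD (limma F-test, adjusted p = 1.75e-06). With a pseudocount of 0.1 the swing test called 0 members (0.0310% of all), with 13 at an unadjusted p under 0.05 in limma. The other 2 transcripts, Glyma06g12890.1 (adjusted p = 0.00393) and Glyma06g12890.3 (adjusted p = 0.0125), were named after their values were seen, and they share the locus and may share reads with Glyma06g12890.4. With letter A, B or C left out, 0, 0 and 3 members passed in limma (0.0916%, 0.0261% and 0.0408% of all). At an unadjusted p under 0.05 the limma counts were 26, 7 and 22.

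T5 minus T3 within LD-SD varied among genotypes for 2 members in the limma F-test (0.234% of all transcripts tested), with 53 at an unadjusted p under 0.05. Glyma12g31840.1 (adjusted p = 0.00379) had 27.3, 35.9 and 59.0 RPKM at T5 in G. soja, against 17.5, 14.2 and 17.5 RPKM in Clark, and 10.8, 10.5 and 6.07 RPKM at T3 in G. soja, against 13.4, 11.6 and 13.8 RPKM in Clark. T5 minus T3 was 2.05 in G. soja and between −0.14 and 0.54 in the other 6 genotypes (log2). Its call for T5 over T3 over all genotypes (0.41, adjusted p = 0.00026) rested on G. soja, without which the difference was 0.15 (adjusted p = 0.185). Glyma20g00450.1 (adjusted p = 0.0228, named after its values were seen) had 6.65, 17.6 and 15.5 RPKM at T5 in G. soja, against 12.5, 13.1 and 11.5 RPKM in Clark, and 6.17, 10.1 and 4.50 RPKM at T3 in G. soja, against 23.9, 21.6 and 21.3 RPKM in Clark. Its T5 minus T3 was 0.85 in G. soja and between −1.17 and −0.31 in the others, so Glyma12g31840.1 stood apart in G. soja at T5 and Glyma20g00450.1 at T3. With letter A, B or C left out, 2, 0 and 0 members passed in limma (0.0593%, 0.0939% and 0.0593% of all). At an unadjusted p under 0.05 the limma counts were 24, 31 and 38. Without the library of unclear letter 6 members passed (0.385% of all).

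Several members came from 1 locus. Of the 148 loci, 114 had 1 member and 34 had several, which covered 86 members, with up to 6 at Glyma13g28400. Within these 34 loci T5 minus T3 in LD-SD differed by a median of 0.07 and at most 0.52 (log2). The other 11 transcripts of the member loci had the same peaks, and 9 of them passed the rule but not the rank. How reads with more than one matching transcript were counted is not stated, so transcripts of a locus, and loci that are near copies, may share reads and are not independent. When the transcripts of a locus were summed, 94 of the 148 loci were higher and 18 lower at T5 than at T3 in LD-SD, against 36.6% and 20.3% of all loci tested.

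By their names, 147 of the member loci lay on the chromosomes and covered all 20 of them, with between 1 locus on chromosome 1 and 15 on chromosome 8 (0.0424% to 0.417% of the loci of a chromosome). Among the member loci, 6 pairs were next to each other in the order of names and 11 pairs lay within 5 names. T5 minus T3 in LD-SD had the same sign in all members of 7 of these 11 pairs. The adjacent Glyma19g13270 and Glyma19g13280, chosen here after their values were seen, were higher at T5 by 2.34 and 2.5 (log2, limma adjusted p = 4.68e-17 and 1.97e-16), while Glyma12g31800.1 and Glyma12g31840.1, which are 4 names apart, differed in sign (−1.24 and 0.41).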

How the data were processed

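RNA sequencing libraries were deposited as RPKM values: the authors aligned the reads with Bowtie (version not given in the sources used here) to the Williams 82 transcripts, counted them with an in-house program and scaled the counts by transcript length and mapped reads, without pooling replicates. The deposited RPKM values covered 73320 transcripts, of which 1 was infinite and left out and 1712 were 0 in every library. Of the transcripts of low level, 8706 were kept whose values, scaled for depth, were whole multiples of their smallest value above 0. The mapped reads of each library were set so that the transcript lengths implied by such values were whole numbers. This held for 100% of the 8706 (tolerance 0.05).

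Tests were made in R 4.3.3 with limma 3.58.1, after log2(RPKM + 1), a pseudocount that understates changes of low transcripts. Group means were fitted with eBayes and trend, for transcripts averaging at least 0.1 RPKM over the libraries of the fit, with Benjamini-Hochberg adjustment and a threshold of 0.05. Time contrasts were averaged over genotypes. The fit was run on simulated data in which libraries varied independently, so that run does not cover deviations shared by the libraries of a letter. The records name 3 biological replicates for a group, and p-values measure the spread between these libraries. Other computations used Python 3.11.15, numpy 2.4.6 and pandas 2.3.3.

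The members, the rule for named transcripts and the tests were chosen with earlier results of these data known. Named transcripts were the 2 of highest rank, the 2 most abundant, the last inside and first outside the limit, the 2 largest and 2 smallest T5 minus T3 in LD-SD past the threshold, and the smallest adjusted p of each genotype test. Gene lists and promoter motifs could not be used, since 0 loci matched the reference table (59048 genes, Glycine_max_v4.0).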

Additional observations from a re-analysis of the deposited data

Results flagged for a closer look

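The 7 genotypes differed in a time or photoperiod contrast for 5 members, 3 in the swing (0.0996% of all transcripts tested) and 2 in LD-SD (0.234% of all), by limma F-tests of the interaction with Benjamini-Hochberg adjustment over all transcripts. The swing of T5 minus T3 between SD and LD differed for the transcripts of Glyma06g12890, with an adjusted p of 0.00164 for Glyma06g12890.4, 0.00393 for Glyma06g12890.1 and 0.0125 for Glyma06g12890.3, where the swing of G. soja was 3.49, 3.82 and 3.64 and that of Clark was 5.10, 5.94 and 5.49 (log2). T5 minus T3 in LD-SD differed for Glyma12g31840.1 (adjusted p = 0.00379), at 2.05 in G. soja and 0.32 in Clark, and for Glyma20g00450.1 (adjusted p = 0.0228), at 0.85 in G. soja and −0.80 in Clark. The swing test called 0 members with a pseudocount of 0.1, with all samples in one fit, without G. soja and without letter A or B. The shares of all transcripts tested were 0.0310%, 0.0834%, 0.0131%, 0.0916% and 0.0261% in this order. At an unadjusted p under 0.05 the limma counts of members were 13, 16, 9, 26 and 7.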

How the results depend on the processing

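Of 163 values recomputed for the counts and the position between SD and LD, 127 kept within 1.5 times the value given above or within its spread, and 36 did not. The number of transcripts past the rule was 664 with a pseudocount of 0.1 and 157 with the median of ratios, against 310, and 146 and 134 of the members stayed among the first 200. Leaving out a replicate letter gave 14 to 23 members lower at T5 than at T3 in LD-SD (15.5% to 17.7% of all). The genotype tests of LD-SD, SD and LD then gave 12 to 15, 12 to 14 and 7 to 26 members (5.40% to 5.88%, 4.59% to 6.45% and 4.54% to 9.89% of all). Without G. soja the genotype tests gave 3, 3 and 1 (1.45%, 1.44% and 0.917% of all). The swing test gave 0 with a pseudocount of 0.1, with all samples in one fit and without G. soja (0.0310%, 0.0834% and 0.0131% of all). At an unadjusted p under 0.05 these limma counts were 13, 16 and 9. The swing test gave 1 with the transcripts of a locus summed (0.107% of all loci tested). With a letter left out it gave 0 to 3 (0.0261% to 0.0916% of all). T5 minus T3 in LD-SD differed among genotypes for 1 member with a pseudocount of 0.1 (0.0839% of all) and 6 with quantile normalization (0.253% of all). It did so for 13 with all samples in one fit (0.821% of all) and 0 without G. soja (0.0332% of all, 27 members at an unadjusted p under 0.05 in limma). The count was 1 without the libraries against their genotype label (0.160% of all) and 6 without the library of unclear letter (0.385% of all). With a letter left out it was 0 to 2 (0.0593% to 0.0939% of all). The position of LD-SD was 0.74 to 0.78 with a letter left out, 0.79 without the library of unclear letter and 0.75 without G. soja. T5 minus T3 of Glyma04g09200.1 in LD-SD was −0.0497 to 0.22 with a letter left out, and it turned negative without letter B (limma adjusted p = 0.836). The cause of these changes was not tested.

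Libraries that shared letter, photoperiod and hour tended to lie on one side of their group means (mean r = 0.19, 376 of 561 pairs over 0.1), but not in every pair (lowest −0.36), so letters were taken as numbers only. With a replicate block the genotype tests called 108, 60 and 56 members in LD-SD, SD and LD (25.8%, 19.9% and 20.8% of all transcripts tested), the swing test 4 (0.234%) and the interaction in LD-SD 11 (0.782%), and T5 minus T3 in LD-SD 147 higher and 21 lower (41.0% and 19.8%). Standard errors averaged over genotypes treat libraries as independent. An alternative chosen after seeing the data, the means of 9 combinations of letter and time point, called 132 higher and 17 lower (31.5% and 15.4%). The library of unclear letter is not in the SD, LD and swing fits. Depth limits low members: 21 had a median of 3 reads or fewer at T1 under SD.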
